A study of Mus musculus with 6 samples.

Results

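The genes of the mitochondrial genome were examined in bulk RNA sequencing of mouse colon. The members are all 37 genes that the GENCODE vM21 annotation (GRCm38) places on chromosome M, chosen by position and not by value. They comprise 2 ribosomal RNA genes, 22 transfer RNA genes, 12 messengers read from the heavy strand of the mitochondrial DNA, and mt-Nd6, the single messenger read from the light strand. The deposited table holds 21374 genes, of which 24 are members: both ribosomal RNAs, all 13 messengers and 9 transfer RNAs. The other 13 transfer RNAs were not analysed here, and no gene in the table has fewer than 10 reads in total. The table therefore holds every long transcript, though some at low and uncertain levels given below, and only some of the transfer RNAs.

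Libraries came from male C57BL/6 mice, 3 labelled wild type and 3 labelled Otud1-/-, the latter lacking by label both copies of the deubiquitinase gene Otud1. All mice were given azoxymethane, a carcinogen acting on the colon, by injection into the abdomen at 6 weeks of age. Then came 3 cycles of 1.5% dextran sulfate sodium in 4-day courses, an agent that damages the gut lining, with 14 days of water after each. On day 81, at 18 weeks of age, the tumours were cut out of the distal colon and RNA of the neighbouring tissue was extracted. The sample is thus whole tissue, and every mouse had the carcinogen, with no untreated group. Nothing in the labels ties a library to its own animal, and the p-values then rest on library-to-library spread, part of which may be technical. Below, wild type 1 to 3 and Otud1-/- 1 to 3 name libraries by label, and values per library stand in that order.

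Mitochondrial DNA encodes core subunits of respiratory complexes I, III and IV and of ATP synthase, together with the ribosomal and transfer RNAs needed to translate them, while the remaining subunits and all the enzymes that copy, transcribe and cut mitochondrial RNA come from nuclear genes. Each strand is transcribed as a long precursor, and the transfer RNAs that lie between the other genes are cut out of it, which frees the messengers and ribosomal RNAs. The heavy strand precursor carries both ribosomal RNAs, 12 messengers and 14 transfer RNAs, and the light strand precursor carries mt-Nd6 and 8 transfer RNAs. In colon, the absorptive epithelial cells depend on mitochondrial oxidation of butyrate.

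Several of these genes share bases with each other or with nuclear copies, and some of these stretches are shown. A read wholly inside a shared stretch cannot be given to a single gene, unless the genes lie on opposite strands and its strand is known. All sequences are from the GENCODE vM21 transcripts, 5′ to 3′. The ends of mt-Nd5, on the plus strand, and mt-Nd6, on the minus strand, overlap by 14 bases at chrM:13552-13565, where both strands end in a stop codon, in capitals.
mt-Nd5 end: ttaatctcgagTAA
mt-Nd6 end: ttactcgagatTAA
The start of mt-Atp6 (chrM:7927-8026, plus strand) overlaps the end of mt-Atp8 over 43 bases, in capitals, and these 100 bases also stand, letter for letter, in the nuclear pseudogene Gm10925 (chr1:24614552-24614651, minus strand).
mt-Atp6 start: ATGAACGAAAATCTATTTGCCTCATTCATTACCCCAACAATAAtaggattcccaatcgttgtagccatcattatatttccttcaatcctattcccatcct
The start of mt-Nd3 (chrM:9459-9518) and its nuclear copy Gm28438 (chr1:24613060-24613119, minus strand) differ at the base in capitals, which is the only difference over 345 aligned bases.
mt-Nd3: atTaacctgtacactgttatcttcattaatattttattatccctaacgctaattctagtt
Gm28438: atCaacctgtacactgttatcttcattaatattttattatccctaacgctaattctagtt
Of the transfer RNAs, mt-Tp, which carries proline (chrM:15356-15422, minus strand), and mt-Tn, which carries asparagine (chrM:5089-5159, minus strand), had the most reads. They are shown with the anticodon in capitals.
mt-Tp: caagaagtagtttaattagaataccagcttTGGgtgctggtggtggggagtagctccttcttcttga
mt-Tn: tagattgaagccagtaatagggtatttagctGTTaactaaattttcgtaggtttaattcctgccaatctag

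The libraries held 15300937 to 19406407 reads assigned to genes, of which 343201 to 536570 fell on chromosome M. On the first principal component of all genes (38.8% of the variance) the wild type libraries stood at -86.5, -22.0 and -25.8. The Otud1-/- libraries stood at 83.3, 28.2 and 22.7, so the labels did not overlap on it. Wild type 1 and Otud1-/- 1 lay farthest out. Results are therefore also given without wild type 1 and Otud1-/- 1 where that changes them. Otud1 itself, the check of the labels, went against them: it had 111, 45.1 and 48.9 normalised reads under the wild type label and 141, 150 and 208 under the Otud1-/- label (limma, adjusted p = 0.0934). Directions below are those between the libraries as labelled, Otud1-/- minus wild type. All 15 epithelial markers were measured, with a summed level of at least 302847 in every library.

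Levels were compared between genes as normalised read count, that is reads scaled by the library's size factor, per kilobase of annotated gene. Under the wild type label the order was led by mt-Co1, a catalytic subunit of complex IV, at 139712 ± 5788 per kilobase (SD, n = 3). The complex III subunit mt-Cytb stood at 57341 ± 5146 and the complex I subunit mt-Nd1 at 36306 ± 2182. Next came the complex I subunits mt-Nd4 (18137 ± 1249) and mt-Nd2 (11961 ± 1016). The proline transfer RNA mt-Tp (9250 ± 480) and mt-Nd5 (8923 ± 1446) did not differ beyond their spread. These values rest on 620 and 16276 normalised reads over genes of very unlike length, 67 and 1824 bases. Then followed mt-Nd6 (6011 ± 951). The ribosomal RNAs were lower than all of these per kilobase, with mt-Rnr1 at 2828 ± 560 and mt-Rnr2 at 2324 ± 302. Within each of the 6 libraries mt-Rnr1 was the higher of the pair per kilobase, by 0.0614 to 0.54 on the log2 scale. Whether ribosomal RNA was depleted or polyadenylated RNA selected before sequencing is not given in the sources used here. The order of these 10 genes was the same in the means under the Otud1-/- label, though not in every library. There mt-Nd2 (16741 ± 1689) and mt-Tp (16313 ± 1491) did not differ beyond their spread.

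The remaining 6 heavy strand messengers, cut from the same precursor, lay between 22.2 and 160 per kilobase, far below the ribosomal RNAs and the other messengers. Under the wild type label mt-Co2, which like mt-Co1 encodes a core subunit of complex IV, stood at 160 ± 25.6 normalised reads per kilobase. The ATP synthase subunit mt-Atp6 stood at 47.8 ± 7.77, and its neighbour mt-Atp8 at 24.6 ± 1.44. The third core subunit of complex IV, mt-Co3, stood at 61.6 ± 8.73. The complex I subunits mt-Nd3 and mt-Nd4l stood at 69.2 ± 16.3 and 22.2 ± 9.0. These 6 genes lie side by side, from chrM:7013 to chrM:10173, between mt-Co1 and mt-Nd4.

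Of these 6 messengers, 5 share nearly all of their sequence with nuclear pseudogenes. A block of chromosome 1 (24611535 to 24616197, minus strand) holds 7 annotated pseudogenes that follow this stretch of the mitochondrial genome, and 5 of them match their counterpart at every aligned base: Gm28661 matches mt-Co2 over 681 bases, Gm10925 matches mt-Atp6 over 678, Gm28437 matches mt-Co3 over 783, Gm10222 matches mt-Nd4l over 294 and Gm28439 matches mt-Nd4 over 876. Gm29216 and Gm28438 each have 1 mismatch, against mt-Co1 and mt-Nd3. Cut into words of 50 bases, 100% of mt-Co2, 99.5% of mt-Atp6, 99.9% of mt-Co3, 98.0% of mt-Nd3 and 98.8% of mt-Nd4l also occurred in a transcript of a nuclear gene. The share was 51.1% for mt-Co1, 62.2% for mt-Nd4, 8.19% for mt-Nd2, 7.61% for mt-Nd5, 1.04% for mt-Rnr2 and 0 for mt-Rnr1, mt-Nd1, mt-Nd6, mt-Cytb and mt-Atp8. These shares are lower limits, since only annotated transcripts were searched. The sequence between Gm10925 and Gm28661, where a copy of mt-Atp8 would lie, was not searched.

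How the submitters' counting treated reads that match both places is not given in the sources used here, and its part in the low levels was not tested. Of the 6 copies in the table, Gm28439 and Gm29216 had means of 4.27 and 19.9 normalised reads under the wild type label, far below mt-Nd4 and mt-Co1, which they copy in part. The copies of the low messengers were closer to them in level. Normalised reads of Gm28661 were 52.4 ± 20.7 under the wild type label and 61.2 ± 26.3 under the Otud1-/- label (SD, n = 3), and those of Gm10925 were 53.9 ± 15.5 and 68.4 ± 15.5. Means of Gm28437 were 37.4 and 51.5, and means of Gm10222 were 3.54 and 7.18. Values of mt-Co2, mt-Atp6, mt-Co3, mt-Nd3 and mt-Nd4l are therefore uncertain as measures of the mitochondrial transcript. For mt-Co1 and mt-Nd4 the level per kilobase was taken over the whole gene, shared part included.

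**Figure D1:**
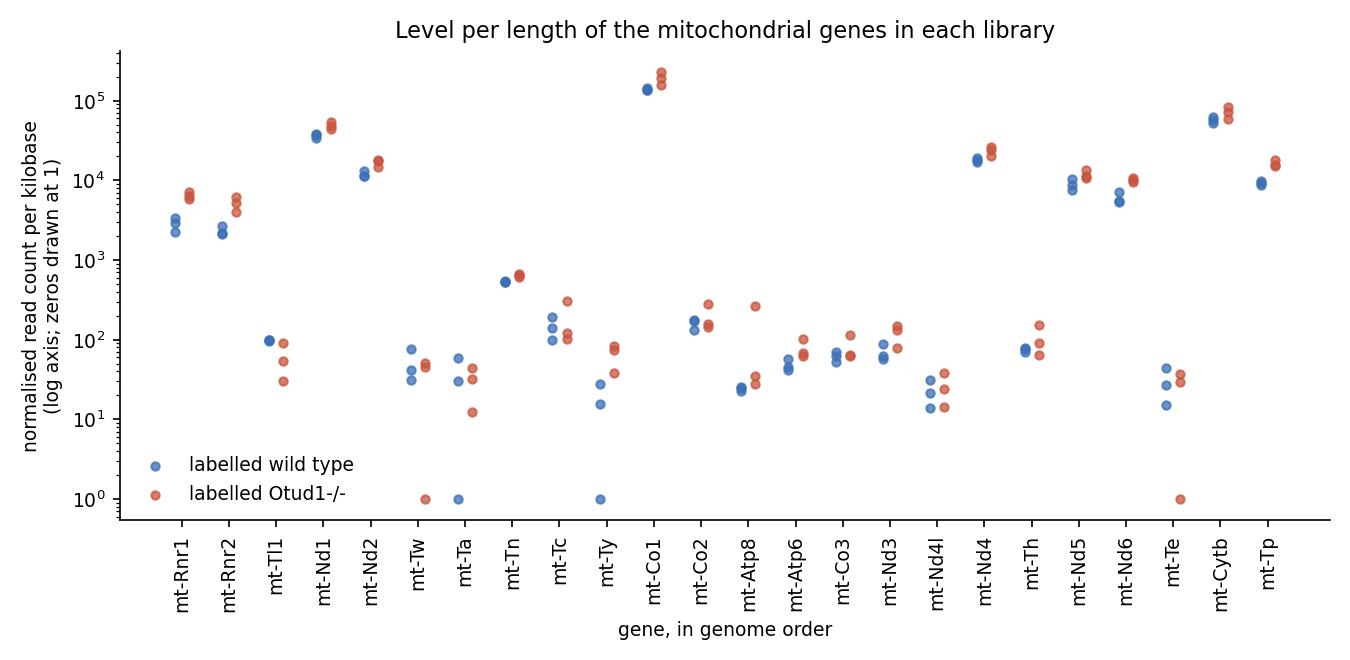
Normalised read count per kilobase (log axis) of the 24 measured genes of the mitochondrial genome, in genome order, with a point for each of the 3 libraries per label and zeros drawn at 1. The messengers from mt-Co2 to mt-Nd4l stand far below mt-Co1 and mt-Nd4 on either side of them.

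**Figure D2:**
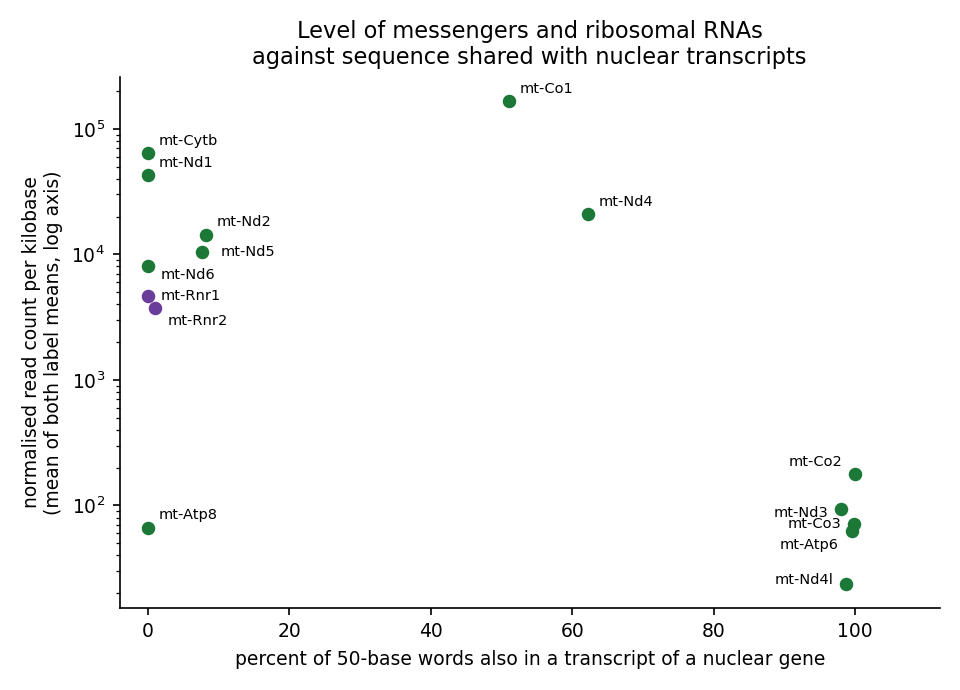
Level per kilobase (log axis, mean of the means of both labels) of the 13 messengers (green) and 2 ribosomal RNAs (purple) against the percent of their 50-base words that also occur in a transcript of a nuclear gene. The 5 messengers at 98.0% or more lie at the bottom right. The low mt-Atp8 stands at 0 in the annotated transcripts searched, which left out the place where its copy would lie.

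Between the labels, 4 of the 24 measured members rose in the libraries labelled Otud1-/- and none fell: the ribosomal RNAs mt-Rnr1 and mt-Rnr2, the light strand messenger mt-Nd6 and the light strand transfer RNA mt-Tp. No heavy strand messenger passed the test. The threshold was an adjusted p of 0.05 (limma, Benjamini-Hochberg over all 21281 genes tested), which 0.949% of all genes passed, 0.282% as higher and 0.667% as lower (60 and 142 genes). Scaling to total reads turned that split to 310 higher and 103 lower. Among the 3980 genes with a mean of at least 1000, 0.452% passed as higher. In 13 members every library under the Otud1-/- label lay above every library under the wild type label, as in 13.0% of all genes tested, and in 1 member, mt-Tl1, they all lay below, as in 13.3%. In either direction the labels were apart in 26.3% of all genes. Changes were positive in 21 of 24 members and in 51.7% of all genes, with medians of 0.39 and 0.02 on the log2 scale. All 4 calls were lost without wild type 1, 2 or 3 in turn, all were kept without Otud1-/- 1 or 2, and 2 were kept without Otud1-/- 3. The calls over all genes moved likewise: 5, 1 and 1 genes were called as higher without wild type 1, 2 and 3. Without Otud1-/- 1, 2 and 3 they numbered 144, 66 and 23.

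The mitochondrial ribosomal RNAs, which form the core of the mitochondrial ribosome, had the largest changes among the well counted members. How RNA was selected before sequencing is not given in the sources used here, and its part in these changes was not tested. The small subunit RNA mt-Rnr1 (ENSMUSG00000064337.1, chrM:70-1024, plus strand) had normalised read counts of 2789, 2127 and 3187 under the wild type label and 5510, 6885 and 6168 under the Otud1-/- label. The labels did not overlap, with means of 6188 ± 688 and 2701 ± 535 (SD, n = 3). On the scale of log2(value + 1) mt-Rnr1 changed by 1.21 ± 0.16 SE (limma, adjusted p = 0.0177). Leaving out wild type 1, 2 or 3 gave changes of 1.24, 1.05 and 1.34 with adjusted p values of 0.0706, 0.0723 and 0.0646. The call was also lost with replicate number as a block (limma, adjusted p = 0.0955) and with limma without trend and robust (adjusted p = 0.154).

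The large subunit RNA mt-Rnr2 (ENSMUSG00000064339.1, chrM:1094-2675, plus strand) had 3427, 3377 and 4228 normalised reads under the wild type label and 6270, 9693 and 8204 under the Otud1-/- label. The labels again did not overlap, and the lowest value under the Otud1-/- label was that of Otud1-/- 1. The change was 1.12 ± 0.17 SE (limma, adjusted p = 0.0301), and 2.19-fold as a ratio of the means, against 2.29-fold for mt-Rnr1. It missed the threshold with wild type 1, 2 or 3 left out (adjusted p in limma of 0.112, 0.126 and 0.107), without Otud1-/- 3 (0.0687) and with edgeR on the recovered reads (0.0539). The call of mt-Rnr2 was also lost with replicate number as a block (limma, adjusted p = 0.0971) and with limma without trend and robust (adjusted p = 0.165).

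Of the 12 heavy strand messengers none was called, although all 12 changes were positive (median 0.43, range 0.14 to 1.25). With limma 5 of them had an unadjusted p under 0.05, as did 19.5% of all genes tested. None of the 10 that edgeR tested was called, and DESeq2, which called 4.19% of its genes as higher, called mt-Nd1 and mt-Nd2. This result depended on the scaling: limma called mt-Nd1, mt-Nd2, mt-Co1 and mt-Nd4 as higher after scaling to total reads, and mt-Nd1, mt-Nd2, mt-Nd4 and mt-Cytb after quantile normalisation. By depth the messengers formed 2 sets: 6 had means of at least 14897 normalised reads over the 6 libraries, and the other 6 had means of 121 or less. In the well counted 6 the changes lay within a narrow range, 0.30 to 0.48, and 5 did not overlap between the labels, as in 6.13% of all genes with a mean of at least 1000.

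Complex I messengers among the well counted ones were mt-Nd1, mt-Nd2, mt-Nd4 and mt-Nd5, all of which encode subunits of its membrane arm, where protons are pumped. Normalised reads of mt-Nd1 were 32351, 36193 and 35690 under the wild type label and 42819, 52375 and 46399 under the Otud1-/- label (change 0.44 ± 0.14 SE, limma, adjusted p = 0.136). For mt-Nd2 the values were 11790, 13632 and 11823 against 15396, 18727 and 18010 (change 0.48 ± 0.13 SE, limma, adjusted p = 0.106). In both genes the labels did not overlap, and Otud1-/- 2 was the highest library. For mt-Nd4 the values were 23244, 26685 and 25048 against 27768, 36477 and 33072 (change 0.37, limma, adjusted p = 0.207). For mt-Nd5 they were 13754, 19017 and 16056 against 20661, 24857 and 19417 (change 0.42, limma, adjusted p = 0.202). Neither gene overlapped between the labels, but the gap in mt-Nd5, between wild type 2 and Otud1-/- 3, was small beside the spread within each label.

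The most abundant member, mt-Co1 of complex IV, had 211306, 226157 and 210100 normalised reads under the wild type label and 242627, 353699 and 299839 under the Otud1-/- label (change 0.45 ± 0.18 SE, limma, adjusted p = 0.209). The labels did not overlap, and the SD was 55545 under the Otud1-/- label and 8943 under the wild type label. The complex III messenger mt-Cytb had 59552, 71311 and 65930 against 68077, 94226 and 82117 (change 0.30 ± 0.16 SE, limma, adjusted p = 0.341). Otud1-/- 1 lay within the wild type range, so mt-Cytb overlapped between the labels.

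The 6 messengers from mt-Co2 to mt-Nd4l had few reads and wide errors. For mt-Co2 the normalised read counts were 117, 122 and 89.7 against 108, 190 and 98.9 (change 0.22 ± 0.28 SE, limma, adjusted p = 0.719), with overlap between the labels. None of the other low messengers was called either. Means under the wild type and the Otud1-/- label were 32.6 ± 5.29 and 53.0 ± 14.7 for mt-Atp6, 48.3 ± 6.84 and 63.7 ± 23.8 for mt-Co3, 24.1 ± 5.69 and 41.6 ± 12.7 for mt-Nd3, and 6.6 ± 2.67 and 7.53 ± 3.51 for mt-Nd4l. In mt-Atp8 a single library stood out: 5 reads in each library under the wild type label, then 63 in Otud1-/- 1, 5 in Otud1-/- 2 and 7 in Otud1-/- 3. Its change of 1.25 was 0.28 without Otud1-/- 1.

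The light strand messenger mt-Nd6 (ENSMUSG00000064368.1, chrM:13552-14070, minus strand), a membrane subunit of complex I, was the only messenger called. Normalised reads numbered 2874, 3688 and 2797 under the wild type label and 5555, 5003 and 5217 under the Otud1-/- label. The labels did not overlap, and Otud1-/- 1 was the highest library here, unlike in the heavy strand messengers, where Otud1-/- 2 was highest in each of the 6 that were well counted. The means were 3120 ± 493 and 5258 ± 278 (SD, n = 3), a change of 0.76 ± 0.13 SE (limma, adjusted p = 0.0428). This call was the weakest of the 4. It held in 7 of 17 alternatives, with adjusted p values from 0.000397 with DESeq2 to 0.181 with limma without trend and robust. Leaving out wild type 1, 2 or 3 in turn ended it (adjusted p in limma of 0.151, 0.0723 and 0.173). It was also lost without Otud1-/- 3 (0.0839), without wild type 1 and Otud1-/- 1 together (0.0720), with edgeR (0.0669), with the replicate block (0.146), with a filter at a mean of 5 (0.0525) and with a pseudocount of 0.1 (0.0501). The strand setting of the count is not given in the sources used here, so reads of mt-Nd6 and of heavy strand RNA across the same bases cannot be told apart.

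Among the transfer RNAs only mt-Tp was called. Its gene (ENSMUSG00000064372.1), whose sequence is printed above, is the last of the annotated genes, at the edge of the control region from which transcription starts. Its 616, 590 and 654 normalised reads under the wild type label stood against 1039, 1208 and 1031 under the Otud1-/- label, with narrow spread and no overlap (means 620 ± 32.1 and 1093 ± 99.9). The change was 0.81 ± 0.12 SE (limma, adjusted p = 0.0223). It was kept with edgeR (0.0349) and lost with wild type 1, 2 or 3 left out (adjusted p in limma of 0.0882, 0.110 and 0.105). Replicate number as a block (limma, adjusted p = 0.125) and limma without trend and robust (adjusted p = 0.154) also ended the call. The gene is 67 bases long, and whether its reads came from cut transfer RNA or from longer RNA was not tested. As for mt-Nd6, the strand setting is not given. Reads of mt-Tp and of heavy strand RNA across the same bases therefore cannot be told apart.

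The asparagine transfer RNA mt-Tn, also of the light strand, had 37, 40 and 37 reads under the wild type label and 55, 39 and 46 under the Otud1-/- label. After division by the size factors the labels did not overlap, with means of 38.1 ± 0.783 and 45.7 ± 1.64, but the change of 0.26 ± 0.26 SE was not called (limma, adjusted p = 0.623). The cysteine transfer RNA mt-Tc had 12, 7 and 9 reads against 24, 6 and 8, with overlap. The leucine transfer RNA mt-Tl1, which lies between mt-Rnr2 and mt-Nd1, had 7, 8 and 7 reads against 8, 2 and 4 (change -0.73, limma, adjusted p = 0.474). The other 5, mt-Tw, mt-Ta, mt-Ty, mt-Th and mt-Te, had at most 9 reads in any library, and none was called. Of these, mt-Ty, which carries tyrosine, did not overlap between the labels, with 1, 2 and 0 reads against 3, 5 and 5 (limma, unadjusted p = 0.0492, adjusted p = 0.255). All 3 measured transfer RNAs of the heavy strand (mt-Tl1, mt-Tw and mt-Th) are in this low range, so the strands cannot be compared through their transfer RNAs.

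**Figure D3:**
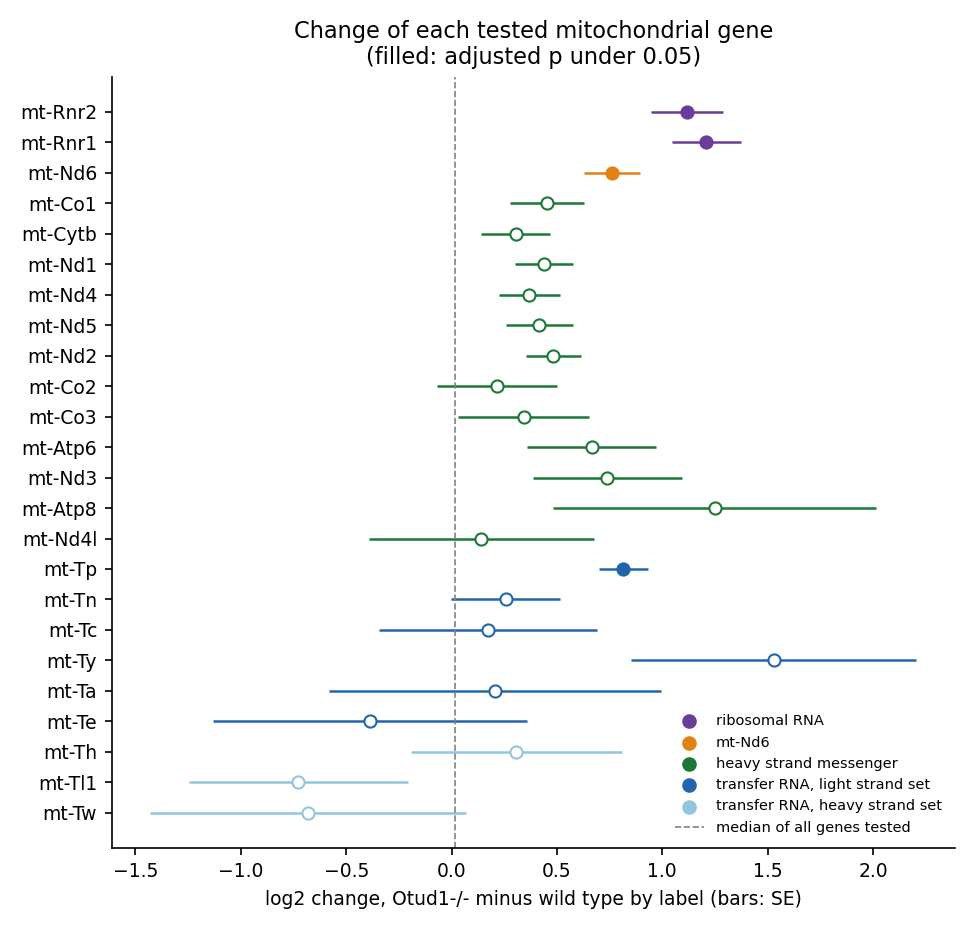
Change of each of the 24 measured members between the labels on the scale of log2(value + 1), with limma's SE, by class of transcript and within a class by mean level. Filled points, mt-Rnr1, mt-Rnr2, mt-Nd6 and mt-Tp, passed the test, and the dashed line is the median of all genes tested (0.02).

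The share of a library's reads that fell on chromosome M was 1.91%, 2.21% and 1.93% under the wild type label and 2.81%, 3.51% and 3.18% under the Otud1-/- label. The labels did not overlap, with means of 2.02% ± 0.167 and 3.17% ± 0.349 (SD, n = 3). The heavy strand messengers made up most of it, at 97.3% ± 0.234 and 96.0% ± 0.223 of chromosome M reads under these labels. The ribosomal RNAs took 1.69% ± 0.305 and 2.74% ± 0.0328 of chromosome M reads, and mt-Nd6 took 0.818% ± 0.0877 and 1.04% ± 0.224. Within chromosome M the labels did not overlap in the shares of the ribosomal RNAs, of the heavy strand messengers and of the transfer RNAs (0.182% ± 0.0170 and 0.228% ± 0.0259). They overlapped for mt-Nd6 and for mt-Co1, which took 56.8% ± 1.37 and 57.3% ± 1.52.

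Ratios of single genes within a library do not depend on how the library was scaled, and 4 pairs were tested with an exact two-sided permutation test over libraries, where 3 against 3 cannot give a p below 0.1. The log2 ratio of mt-Rnr2 to mt-Nd1, which have only mt-Tl1 between them, was -3.24, -3.42 and -3.08 under the wild type label and -2.77, -2.43 and -2.50 under the Otud1-/- label. This is a difference of 0.68 without overlap (exact permutation p = 0.1, adjusted over the 4 pairs p = 0.2). The ratio of mt-Rnr2 to mt-Rnr1 was 0.46 ± 0.19 and 0.36 ± 0.16, a difference of -0.09 (exact permutation p = 0.6, adjusted p = 0.6), which is smaller than the spread within a label.

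Between the strands, the log2 ratio of mt-Nd6 to mt-Cytb was -4.37, -4.27 and -4.56 under the wild type label and -3.62, -4.24 and -3.98 under the Otud1-/- label. The difference was 0.46, and the labels were separated only by the small gap between wild type 2 and Otud1-/- 2 (exact permutation p = 0.1, adjusted p = 0.2). Without Otud1-/- 1 it was 0.30. The ratio of mt-Nd6 to mt-Nd5 overlapped between the labels (difference 0.35, exact permutation p = 0.2, adjusted p = 0.267). Ratios to mt-Nd1 were also taken for the other 5 well counted heavy strand messengers. The difference between the labels was 0.01 for mt-Co1, 0.04 for mt-Nd2, -0.07 for mt-Nd4, -0.02 for mt-Nd5 and -0.13 for mt-Cytb on the log2 scale, against 0.77 for mt-Rnr1, 0.38 for mt-Tp and 0.32 for mt-Nd6. The labels did not overlap for mt-Cytb, mt-Rnr1 and mt-Tp, and they overlapped for mt-Nd6 and for mt-Co1, mt-Nd2, mt-Nd4 and mt-Nd5. These ratios to mt-Nd1, given without a test, share that gene.

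**Figure D4:**
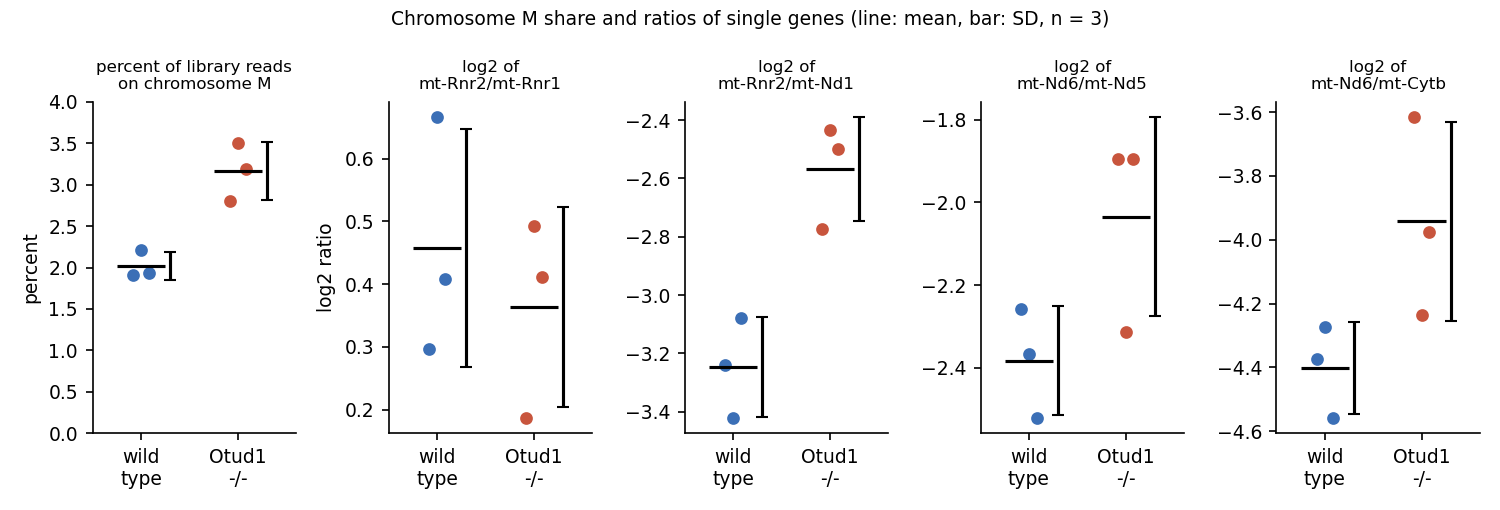
Percent of library reads on chromosome M and log2 ratios of 4 pairs of mitochondrial genes in the 3 libraries of each label (points), with means (lines) and SD (bars). The labels do not overlap in the share, in mt-Rnr2 to mt-Nd1 and in mt-Nd6 to mt-Cytb, and they overlap in the other pairs.

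Nuclear subunits of the same complexes had changes of the opposite sign with the deposited scaling. Of 73 measured nuclear subunits of complexes I to IV and ATP synthase 72 had negative changes (median -0.24), none of them called by limma. An unadjusted p under 0.05 was reached by 28 of the 73, and by 19.5% of all genes. The medians were -0.20 for complex I, -0.29 for complex II, which has no mitochondrially encoded subunit, -0.23 for complex III, -0.36 for complex IV and -0.23 for ATP synthase. With the smallest p were Ndufa9 (-0.37) and Ndufv3 (-0.44) of complex I, Sdhd (-0.34) and Sdhb (-0.31) of complex II, Uqcrfs1 (-0.40) and Uqcrc2 (-0.30) of complex III, Cox7a2 (-0.49) and Cox5a (-0.43) of complex IV, and Atp5g3 (-0.38) and Atp5o (-0.32) of ATP synthase. Scaling to total reads moved the median of all genes by 0.20 and left 28 of 73 subunits positive, since it moved all genes alike. Relative to the median of all genes the subunits stood at -0.25 with the deposited scaling, -0.24 with total reads as the scale and -0.06 with quantiles, where 19 of 73 were positive. The 12 heavy strand messengers stood at 0.41, 0.42 and 0.72 on the same measure.

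Nuclear genes that maintain and read mitochondrial DNA had no called member either. Over all 217 partner genes limma called 0, edgeR called 0 and DESeq2 called 1, Cox7a2. At an unadjusted p under 0.05 in limma stood 37 of the 217, beside 19.5% of all genes. The transcription list, with the mitochondrial RNA polymerase gene Polrmt and the packaging and initiation factor Tfam, had 6 of 10 positive changes (median 0.06), with Tfb2m at 0.25 and Tfam at 0.19. The DNA replication list had 5 of 7 positive (median 0.30), led by the helicase Twnk (0.47 ± 0.14 SE, limma, adjusted p = 0.129) and the topoisomerase Top1mt (0.38). Of the genes that cut, tail and stabilise mitochondrial RNA 11 of 17 were positive (median 0.11), led by the RNA-binding protein Grsf1 (0.37) and the oligoribonuclease Rexo2 (0.47), each with a limma adjusted p of 0.136.

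Changes were positive in 10 of 11 genes that modify mitochondrial ribosomal and transfer RNA (median 0.23), among them the 12S methyltransferase Tfb1m (0.38) and Nsun4 (0.23). They were positive in 14 of 17 mitochondrial aminoacyl-tRNA synthetases (median 0.10), with Lars2 at 0.39 and Vars2 at 0.34. In the list of biogenesis regulators 3 of 6 were positive (median -0.05), with the nuclear receptor Esrra at -0.46 and the coactivator Pprc1 at 0.31. The 77 proteins of the mitochondrial ribosome, which assemble on mt-Rnr1 and mt-Rnr2, were evenly split, with 40 positive and a median of 0.01, and had Mrps6 (-0.50) and Mrpl13 (0.28) at the smallest p. No partner list had a median near that of the ribosomal RNAs (1.16), and differences between lists were not tested. Among the marker lists of cell types described below, smooth muscle had a median of 1.10 and red blood cells 1.06. The medians of the other marker lists lay between -0.91 and 0.85. After scaling to total reads Rexo2 and Lars2 were called as higher.

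**Figure D5:**
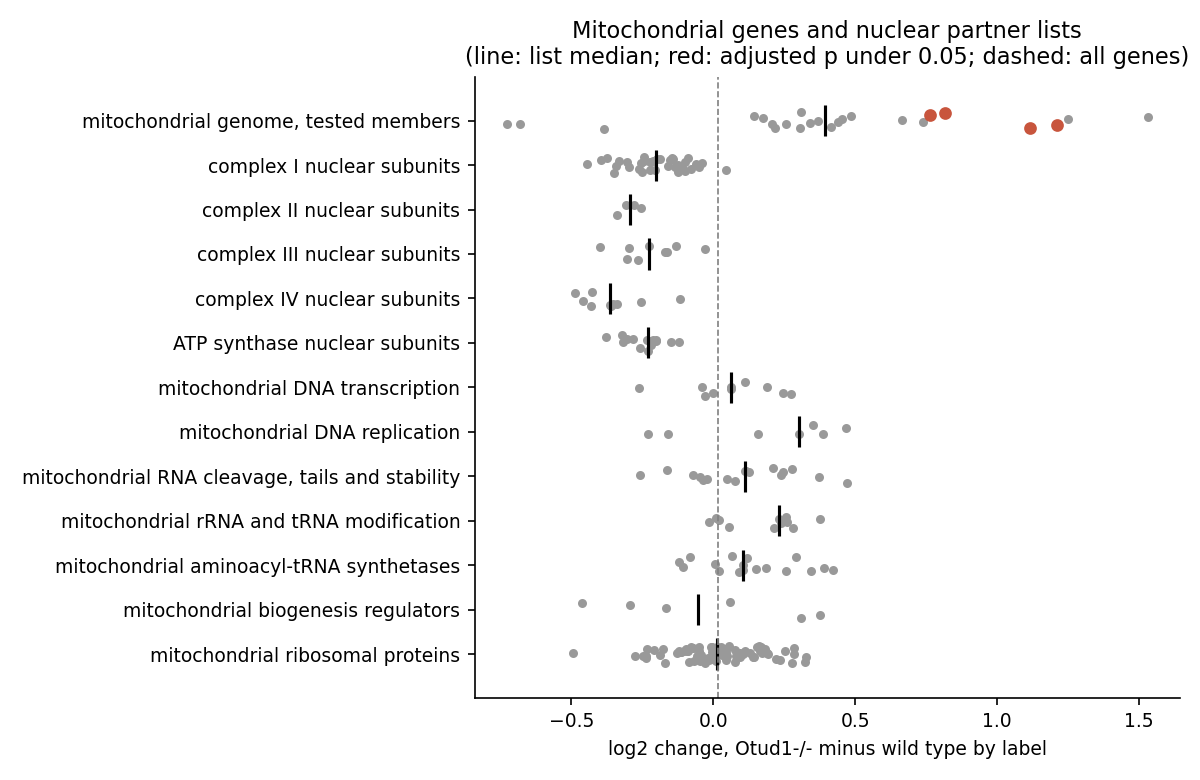
Change on the log2 scale of the measured mitochondrial genes (top) and of the members of 12 lists of nuclear partner genes, a point per gene, with list medians as lines and called genes in red. Of 73 nuclear subunits of the 5 complexes 72 have negative changes, left of the median of all genes (dashed, 0.02), and the 4 called genes are all mitochondrial.

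Markers of the cell types in the tissue also moved with the label. The summed normalised read count of 12 smooth muscle markers was 40947 to 45147 under the wild type label and 66641 to 134581 under the Otud1-/- label, and 4 of the 12 were called as higher. That of 15 epithelial markers was 482171 to 571519 and 302847 to 455159, without overlap and with none called. Sums under the wild type and the Otud1-/- label were 8316 to 11703 and 5589 to 7003 for 7 macrophage and monocyte markers (none called), 7202 to 9960 and 2897 to 3594 for 5 neutrophil markers (1 called as lower), and 712 to 1035 and 1100 to 1213 for 8 markers of enteric neurons and glia (none called). Of 5 skeletal muscle markers 1 was called as higher, and none of the markers of B and plasma cells, T and NK cells, endothelium, fat or red blood cells was called. Of all genes 0.282% were called as higher and 0.667% as lower. Sums follow the most abundant markers: 2 of 15 epithelial and 2 of 5 neutrophil markers had positive changes. In the mean log2 value of the neuron and glia markers, Otud1-/- 1 (5.99) lay within the wild type range (5.78 to 6.07). The part of tissue make-up in the mitochondrial values was not tested, and in whole tissue fewer cells of a type and less RNA per cell cannot be told apart.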

How the data were processed

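Bulk RNA sequencing of 6 colon libraries was compared by genotype label. The authors deposited a normalised signal. Dividing each library by its own step returned whole numbers of reads in 100% of cases (tolerance 0.001 of a read), and the inverse of each step matched DESeq2's size factor by median of ratios. The build is mm10, per the submitters' processing notes. Aligner, counter, strand setting, selection of RNA and treatment of multiply matching reads: not given in the sources used here. Of 21374 IDs 21336 matched GENCODE vM21 (GRCm38).

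Testing took genes whose value reached 1 in 3 or more libraries (21281, all 24 measured members included) and used limma 3.58.1 in R 4.3.3 (trend and robust, two-sided) on log2(value + 1), adjusted by Benjamini-Hochberg over all genes. Alternatives included edgeR 4.0.16 and DESeq2 1.42.0 on the recovered reads, other scalings and filters, and leaving out libraries. Members and lists were chosen with earlier results of these data known. Every measured member is named, those with a mean of at least 100 with values per library, and from each partner list the called genes or, with none called, the 2 with the smallest p. The labels name no molecular identifiers, and depth (15300937 to 19406407 reads per library) sets only the counting part of the error.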

Additional observations from a re-analysis of the deposited data

How the results depend on the processing

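The number of members called as higher, 4, was 8 after scaling to total reads, to reads outside chromosome M or by quantiles, 2 with edgeR and 0 with limma without trend and robust, where 9 members had an unadjusted p under 0.05. It ranged from 0 to 4 when single libraries were left out, and none was called as lower in any setting. With single libraries left out, 1 to 144 of all genes were called as higher. Over all genes, 60 were called as higher and 142 as lower, against 15 and 47 with edgeR, 669 and 744 with DESeq2, 0 and 18 with the replicate block, and none with limma without trend and robust, where 3499 had an unadjusted p under 0.05. The labels do not say whether replicate numbers pair the libraries. Correlations of deviations were -0.26, -0.10 and -0.09 for numbers 1, 2 and 3, which with 3 libraries per label cannot settle it. With the replicate block 0 members were called (9 at an unadjusted p under 0.05 in limma). Nuclear partner genes called as higher numbered 2 after scaling to total reads or to reads outside chromosome M, 1 without wild type 1 and Otud1-/- 1 together and 0 to 1 without single libraries, and DESeq2 called 1 as lower. The median of the heavy strand messengers was 0.72 after quantile normalisation. The change of mt-Nd6 was 0.97, 0.99 and 0.99 after scaling to total reads, to reads outside chromosome M and by quantiles. The median of the 3 heavy strand transfer RNAs, -0.68, was -0.55, -0.54 and -0.88 under these scalings, -0.87 with a pseudocount of 0.1, -0.21 with a filter at a mean of 5, -0.20 without wild type 1 and Otud1-/- 1, and -0.73 to 0.00981 without single libraries. That of the light strand transfer RNAs, 0.23, was 0.54 with a pseudocount of 0.1 and 0.55 with edgeR, which tested fewer of them, 0.0415 after quantile normalisation and 0.10 to 0.48 without single libraries. Directions turned for members with small changes or few reads. After quantile normalisation mt-Nd4l stood at -0.10, mt-Ta at -0.0343 and mt-Tc at -0.0024. With DESeq2 mt-Ta stood at -0.0168, and without wild type 1 and Otud1-/- 1 together mt-Tc stood at -0.0672. Without single libraries the change ranged from -0.0755 to 0.39 for mt-Co2, -0.16 to 0.45 for mt-Nd4l, -0.46 to 0.72 for mt-Ta, -0.28 to 0.46 for mt-Tc, -0.73 to 0.18 for mt-Te and -1.05 to 0.00981 for mt-Tw. The ratio of mt-Rnr2 to mt-Rnr1 then ranged from -0.17 to 0.0112. The cause of these shifts was not tested. The changes of mt-Rnr1, mt-Rnr2, mt-Nd6 and mt-Tp were positive in all 17 alternatives. Where libraries were left out, that sign was fixed in advance, since the labels do not overlap in these genes. The same holds with other filters, the pseudocount of 0.1, the replicate block and limma without trend and robust, which keep the deposited scaling.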
